A study of Mus musculus with 27 samples.

Results

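The genes described here are the 195 zinc finger genes with a symbol of the form Zfp and a number that had an FPKM (RNA-seq fragments per kilobase of gene, scaled to the size of the library) of at least 2 in all 6 RNA-seq libraries of parental NMuMG cells. They were chosen by these FPKM values from 333 such symbols among 23295 genes. NMuMG is an epithelial line from normal mouse mammary gland, which undergoes an epithelial to mesenchymal transition (EMT) when treated with TGF-β. Parental cells were untreated (0 h) or treated with TGF-β (1 to 5 ng/ml in the labels) for 8 or 24 h, with 2 RNA-seq libraries per time point, and 1 lamin B1 ChIP-seq library (parallel ChIPs mixed) and 1 ATAC-seq library per time point. The same times were sampled in cells carrying a lentiviral control shRNA (C) and in cells carrying an shRNA against lamin B1 (KD), all selected with puromycin, with 2 libraries per group and 12 in all. The FPKM rule of the parental libraries chose the genes, so their parental values are given as a description with no test, and tests come from the 12 shRNA libraries only.

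Most Zfp genes encode proteins with arrays of C2H2 zinc fingers, in which 2 cysteines and 2 histidines hold a zinc ion and each finger can contact a few bases of DNA. Many also carry a KRAB domain, which binds Trim28 (KAP1), and through it the H3K9 methyltransferase Setdb1 and HP1 proteins, to silence chromatin, mostly at retroelements. KRAB genes multiplied by local duplication and lie in clusters of similar copies, and lamin B1, the protein that was immunoprecipitated, is a filament protein of the nuclear lamina.

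On mm9, 190 of the 195 genes could be placed. A search of their translated coding sequences found a KRAB motif and C2H2 fingers in 63 genes (2 to 23 finger matches, median 12), C2H2 fingers without the KRAB motif in 121 (1 to 36, median 9) and no C2H2 match in 6. The 6 were Zfp36, whose fingers are of the CCCH type, and Zfp259, Zfp330, Zfp365, Zfp703 and Zfp707. The motif misses divergent KRAB boxes, so the genes called other C2H2 genes below may include KRAB genes. Zfp57, a KRAB protein known for keeping imprints, was not matched by it. Chromosome 7 held 44 of the genes and chromosome 17 held 29, of which 17 and 19 had the KRAB motif. Within 250 kb of another Zfp gene lay 54 of the 63 KRAB genes (85.7%) and 56 of the 121 other C2H2 genes (46.3%). Reads of near-identical neighbours may be split among copies by the estimation of FPKM, so values of single KRAB genes in such runs are uncertain.

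The 200 bases before the transcription start site (TSS) are shown for 5 genes that the results below turn on, with CpG dinucleotides in capitals (mm9, 5′ to 3′ on the gene's strand). Zfp91 and Zfp706 had the highest lamin B1 peaks over a promoter, Zfp367 gained a lamin B1 peak at 8 h and had the largest fall of expression, and Zfp51 and Zfp946 belong to a run of KRAB genes on chromosome 17 with no lamin B1 peak.
Zfp91, chr19:12870617-12870816 (minus strand): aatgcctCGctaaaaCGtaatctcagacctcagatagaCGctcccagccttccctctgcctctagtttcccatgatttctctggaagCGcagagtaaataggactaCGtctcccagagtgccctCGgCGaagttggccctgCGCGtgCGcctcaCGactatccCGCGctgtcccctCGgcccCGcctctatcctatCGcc
Zfp706, chr15:36937158-36937357 (minus strand): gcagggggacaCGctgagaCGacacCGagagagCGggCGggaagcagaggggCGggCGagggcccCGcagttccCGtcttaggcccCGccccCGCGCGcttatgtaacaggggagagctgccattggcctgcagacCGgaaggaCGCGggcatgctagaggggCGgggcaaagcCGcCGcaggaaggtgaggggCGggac
Zfp367, chr13:64254511-64254710 (minus strand): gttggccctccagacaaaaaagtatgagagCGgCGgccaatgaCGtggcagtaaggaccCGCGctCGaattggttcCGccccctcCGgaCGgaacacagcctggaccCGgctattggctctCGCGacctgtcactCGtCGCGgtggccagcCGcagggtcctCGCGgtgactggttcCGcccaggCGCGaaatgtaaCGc
Zfp51, chr17:21587116-21587315 (plus strand): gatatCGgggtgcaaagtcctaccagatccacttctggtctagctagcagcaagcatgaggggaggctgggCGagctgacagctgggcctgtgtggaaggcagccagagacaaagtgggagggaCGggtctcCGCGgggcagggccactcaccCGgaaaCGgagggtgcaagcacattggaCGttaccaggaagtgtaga
Zfp946, chr17:22560989-22561188 (plus strand): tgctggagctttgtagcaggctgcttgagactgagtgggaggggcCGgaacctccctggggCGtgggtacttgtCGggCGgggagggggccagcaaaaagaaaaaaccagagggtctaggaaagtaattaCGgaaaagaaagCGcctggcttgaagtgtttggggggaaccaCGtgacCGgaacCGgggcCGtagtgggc
The stretches of Zfp91, Zfp706 and Zfp367 hold 16, 20 and 22 CpG dinucleotides, and those of Zfp51 and Zfp946 hold 8 and 10. Within 500 bp on each side of the TSS the first 3 genes also had more GC than the last 2, with contents of 57.2% (Zfp91), 72.6% (Zfp706), 68.4% (Zfp367), 49.0% (Zfp51) and 49.7% (Zfp946).

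The zinc finger genes were expressed at low levels. The median over the 195 genes of the mean parental FPKM was 6.55 (quartiles 3.95 and 9.64), against 16.4 for all 9576 genes that met the same FPKM rule. KRAB genes had a median of 4.92 FPKM and none exceeded 15.8, whereas other C2H2 genes had a median of 7.77 and reached 103. Of the 195, 74 lay under 5 FPKM, 74 from 5 to 10, 32 from 10 to 20 and 15 at 20 or more. The 8 highest were Zfp207 (103 FPKM), Zfp706 (81.1), Zfp106 (47.0), Zfp664 (37.4), Zfp259 (36.3), Zfp91 (35.4), Zfp146 (32.2) and Zfp330 (32.0). Zfp207 encodes BuGZ, which acts with Bub3 at the mitotic spindle, and Zfp259 encodes Zpr1, a binding partner of eEF1A. None of the 7 that could be placed is in the KRAB class. Just inside the rule, the lowest parental values were 2.04 (Zfp738), 2.12 (Zfp111), 2.14 (Zfp93) and 2.17 FPKM (Zfp867). Just outside it were Zfp933 (1.96), Zfp763 (1.95), Zfp653 (1.94) and Zfp691 (1.93).

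**Figure D1:**
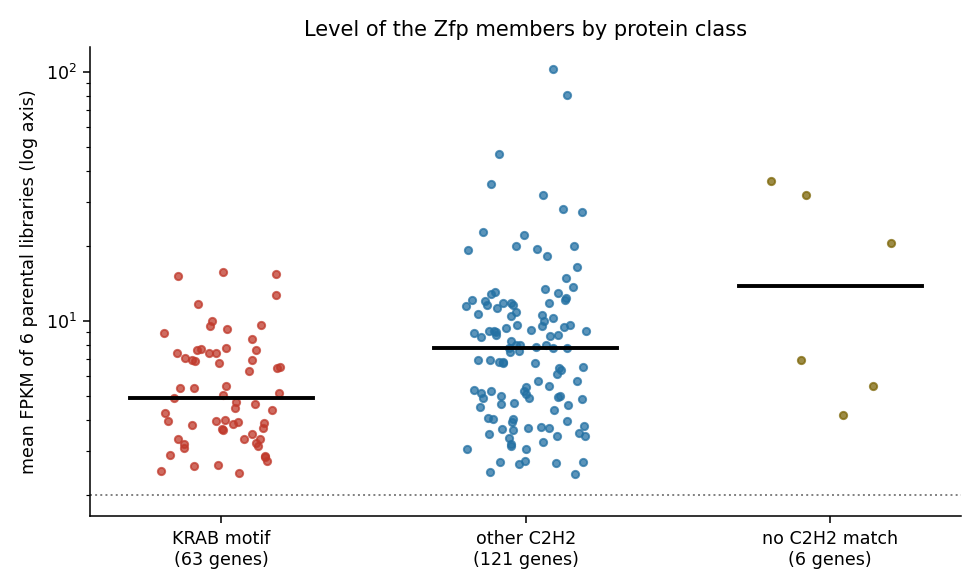
Mean FPKM over the 6 parental libraries (log axis) of each zinc finger gene, by class, with the median of each class as a bar and the limit of 2 FPKM as a dotted line. KRAB genes (median 4.92) stop at 15.8 FPKM, and other C2H2 genes (median 7.77) reach 103.

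Lamin B1 peaks were fewer at the zinc finger genes than at expressed genes as a whole, and fewest at the KRAB genes. A gene was counted as lamin B1 + when a peak touched the stretch from 2500 bp upstream of the TSS to its 3′ end. Per the paper, the ChIP-seq covered a fraction enriched in euchromatin (open chromatin), and large fragments, as left by heterochromatin, were not sequenced. A gene without a peak is therefore not shown to lack contact with lamin B1. At 0, 8 and 24 h, 46 (24.2%, 95% Wilson interval 18.7 to 30.8), 85 (44.7%, 37.8 to 51.8) and 70 (36.8%, 30.3 to 43.9) of the 190 placed genes were lamin B1 +, where 35.5%, 58.9% and 46.1% of 9413 placed genes of the same FPKM rule were. KRAB genes were lamin B1 + in 3 (4.76%, 1.63 to 13.1), 12 (19.0%, 11.2 to 30.4) and 6 (9.52%, 4.44 to 19.3) of 63 cases. Other C2H2 genes were lamin B1 + in 41 (33.9%, 26.1 to 42.7), 68 (56.2%, 47.3 to 64.7) and 61 (50.4%, 41.6 to 59.2) of 121. The intervals of the KRAB and other C2H2 genes did not overlap at any time point. They cover counting error only, since each time point is 1 library. They also take genes as independent, whereas 54 of the 63 KRAB genes lie within 250 kb of another Zfp gene, so they may be too narrow. The lists differ in length (4645, 10484 and 7083 peaks), so a rise of the share between time points cannot be told apart from a longer list.

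Over the 3 time points, 91 of the 190 genes (47.9%) had no lamin B1 peak, 36 had one at every time, 21 at 8 h only and 23 at 8 and 24 h. Among KRAB genes, 46 of 63 (73.0%) had none at any time. These counts over time are given without the share of all genes of the rule. The 8 h list was the longest, so a peak at 8 h only cannot be told apart from its length. Low expression moved with the peaks and was compared directly. Among genes of 5 to 10 FPKM, 4 of 26 KRAB genes (15.4%), 28 of 46 other C2H2 genes (60.9%) and 57.2% of all genes were lamin B1 + at 8 h. Among those of 2 to 5 FPKM the shares were 7 of 32 (21.9%), 16 of 37 (43.2%) and 51.4%.

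**Figure D2:**
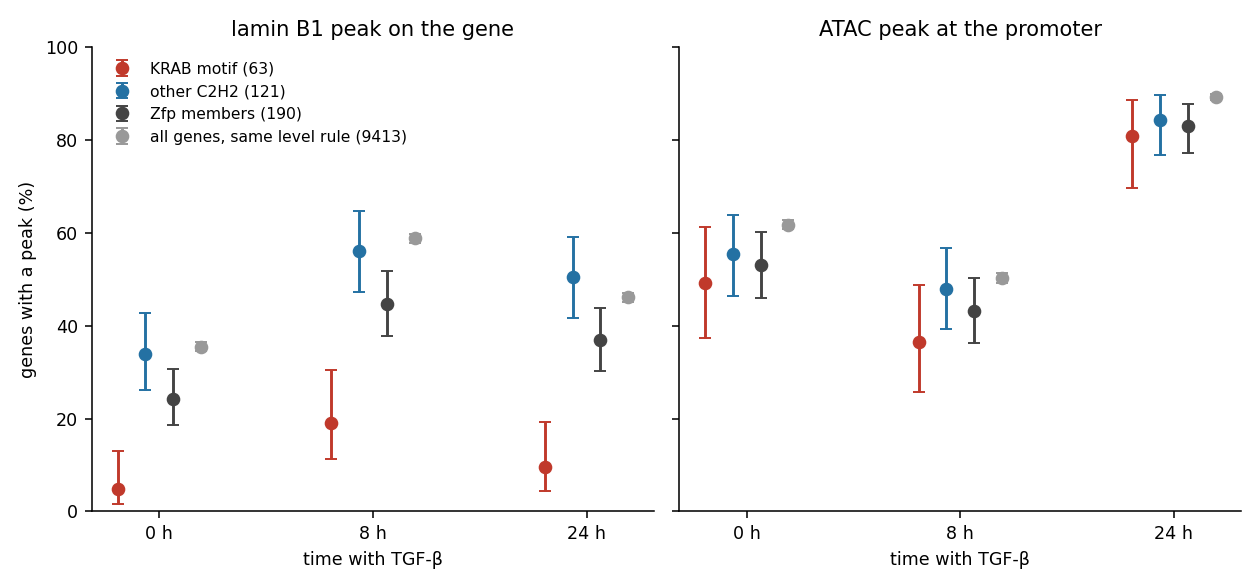
Percent of genes that were lamin B1 + (one panel) and that had an ATAC peak within 500 bp of the TSS (the other) at 0, 8 and 24 h, for KRAB genes, other C2H2 genes, all zinc finger genes described and all genes of the same FPKM rule, with 95% Wilson intervals (counting error only). The lamin B1 shares of KRAB genes (4.76, 19.0 and 9.52%) lie under those of other C2H2 genes (33.9, 56.2 and 50.4%) at each time.

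Base composition moved with the peaks too. The median GC content of the 1000 bp around the TSS was 53.1% for KRAB genes, 58.8% for other C2H2 genes and 59.2% for all genes of the same rule, with 42, 57 and 65 CpG dinucleotides. Of the genes under 50% GC, 6 of 44 were lamin B1 + at 8 h, against 8 of 48 from 50 to 55%, 24 of 40 from 55 to 60% and 47 of 58 at 60% or more. All genes of the rule gave 32.3%, 35.3%, 52.7% and 76.9% in those bands. Within bands, KRAB genes were lamin B1 + at 8 h in 0 of 15, 5 of 30, 5 of 16 and 2 of 2, and other C2H2 genes in 6 of 29, 3 of 17, 17 of 22 and 42 of 53. Only 2 KRAB genes reached 60% GC. The part of base composition in the difference between the classes was not tested.

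**Figure D3:**
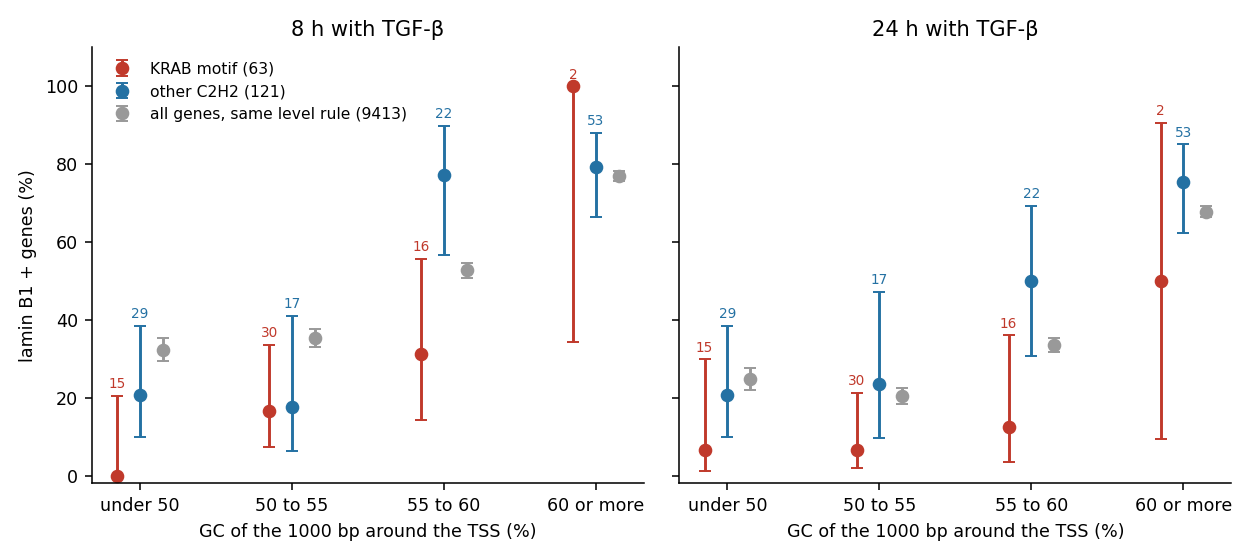
Percent of genes that were lamin B1 + at 8 h and at 24 h (panels) by GC content of the 1000 bp around the TSS, for KRAB genes, other C2H2 genes and all genes of the same FPKM rule, with 95% Wilson intervals and the number of zinc finger genes above each. In all genes at 8 h the share goes from 32.3% under 50% GC to 76.9% at 60% or more.

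ATAC-seq, which marks open chromatin, gave a peak within 500 bp of the TSS in 101 (53.2%), 82 (43.2%) and 158 (83.2%) of the 190 genes at 0, 8 and 24 h, against 61.7%, 50.3% and 89.4% of the 9413. KRAB genes had one in 31, 23 and 51 of 63 and other C2H2 genes in 67, 58 and 102 of 121. The 24 h list held 33811 peaks against 9782 and 10340, so its shares are not comparable with the earlier ones. At 24 h, 20 of the 44 zinc finger genes under 50% GC and 41 of the 48 from 50 to 55% had an ATAC peak. From 55 to 60% GC 40 of the 40 had one, and at 60% or more 57 of the 58. All genes of the rule gave 51.4%, 86.3%, 93.2% and 96.2% in those bands.

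The lamin B1 peaks of the highest score over a promoter were those of Zfp91, which encodes a ubiquitin ligase, and of Zfp706. At Zfp91 the peak scored 196, 333 and 206 at 0, 8 and 24 h, and at 8 h it covered chr19:12870067-12871087 with its centre 39.0 bp inside the gene. At Zfp706 the scores were 82.1, 188 and 235, and the 24 h peak covered chr15:36936244-36937973. Both promoters are those with dense CpG printed above. The other high promoter peaks were at Zfp609 (131), Zfp251 (129) and Zfp622 (123) at 0 h, Zfp451 (188) and Zfp622 (185) at 8 h, and Zfp746 (221) and Zfp644 (207) at 24 h.

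A larger part of the lamin B1 peaks at zinc finger genes was centred in a coding exon. Of the pairs of a gene and a peak, 22 of 59 (37.3%), 33 of 119 (27.7%) and 23 of 90 (25.6%) were centred in coding sequence at 0, 8 and 24 h, against 8.17%, 12.1% and 7.43% for all genes of the rule. Most of these pairs were at other C2H2 genes, with 19 of 52, 29 of 97 and 20 of 78 in coding sequence. KRAB genes had few pairs, with 1 of 4, 2 of 16 (12.5%) and 1 of 7 in coding sequence. How much of each gene is coding was not taken into account. Promoters held 52.5%, 58.0% and 58.9% of the pairs at zinc finger genes against 67.4%, 65.1% and 76.1%. The highest coding peaks had larger scores than any promoter peak of these genes. Zfp865 had a peak of score 903 at 24 h (chr7:4981327-4983867, 10619 bp from the TSS, 65.8% GC), and Zfp697 one of 674 at 24 h (chr3:98231214-98232812, 45609 bp from the TSS) that scored 635 at 8 h and 94.1 at 0 h. The central 120 bases of these peaks, all coding, are shown with CpG in capitals, since they lie far from the TSS of their own genes.
Zfp865, chr7:4982538-4982657 (plus strand): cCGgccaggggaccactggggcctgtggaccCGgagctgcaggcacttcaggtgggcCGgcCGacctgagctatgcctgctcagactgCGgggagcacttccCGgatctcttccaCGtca
Zfp697, chr3:98231954-98232073 (plus strand): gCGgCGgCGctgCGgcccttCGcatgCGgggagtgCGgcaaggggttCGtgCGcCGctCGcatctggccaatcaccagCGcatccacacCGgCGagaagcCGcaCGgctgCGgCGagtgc
They hold 7 and 18 CpG dinucleotides.

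The RNA-seq libraries were similar in depth. Relative depth was read from the steps of low values. It was 93.1 to 116% of the first library in the parental table and 79.1 to 112% in the shRNA table. Replicates correlated with r of 0.990 to 0.994 and 0.983 to 0.993 across genes. Composition differed between untreated and treated shRNA libraries. At 0 h the top 10 genes held 11.4 to 16.9% of the summed FPKM. In treated libraries they held 17.9% (KD 8 h replicate 2) to 40.4% (C 24 h replicate 1). The part of this in the lower values after TGF-β was not tested, and counts after other scaling are given below. Of the epithelial markers, Cdh1, Krt8, Krt18 and Krt19 were expressed, with Cdh1 at 39.4 to 119 FPKM in parental cells, but Epcam was near 0 (0.171 to 1.17 FPKM). The 6 markers of immune, endothelial and fat cells summed to 2.33 to 3.15 FPKM in the parental and 1.24 to 2.05 in the shRNA libraries, and of them only Cd68 passed 1 FPKM. Lmnb1, the targeted gene, was at 29.2 and 36.5 FPKM in C and 9.01 and 9.27 in KD cells at 0 h, 32.8 and 32.1 against 7.79 and 8.14 at 8 h, and 18.4 and 17.9 against 4.37 and 7.52 at 24 h. Bulk RNA-seq cannot tell fewer expressing cells from less RNA per cell.

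KD 24 h replicate 2 stood apart in the genes described here. The 63 KRAB genes had a median log2 difference of -0.22 between replicate 2 and replicate 1 of KD 24 h cells, with 50 of 63 lower in replicate 2, where other C2H2 genes had -0.01 and all genes 0.02. In the other 5 groups the median of the KRAB genes was between -0.05 and -0.01, with 33 to 51 of 63 lower in replicate 2, so that the size of the difference set this library apart and not the number of genes. On chromosome 17, 25 of 29 zinc finger genes were lower in it (median -0.48), against a median of 0.04 over all 543 tested genes of that chromosome. On chromosome 13, 11 of 11 were lower (-0.27, all genes -0.04), and on chromosome 5, 9 of 11 (-0.34, all genes 0.01). On chromosome 7, 21 of 44 were lower (0.01, all genes 0.05). A run of 3 genes on chromosome 2 (Zfp120, Zfp937 and Zfp442), 0 of them with the KRAB motif, had a median of -0.81, with 3 of 3 lower. The counts of calls in KD 24 h cells are therefore given with and without it. The spread of the fit is shared by all groups, so counts of the other contrasts depend on this library too.

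In parental cells, whose values chose the genes, the zinc finger genes had a higher median log2 difference at 24 h than all genes of the rule, which is given with no test. The median log2 difference from 0 h, on log2(FPKM + 1), which understates changes of low genes, was 0.04 at 8 h and 0.14 at 24 h, against -0.04 and -0.03 for all genes of the rule. At 24 h both replicates were above both 0 h replicates in 118 genes (60.5%) and below them in 46 (23.6%), while the shares of all genes were 40.4% and 45.8%. At 8 h these were 86 (44.1%) and 55 (28.2%) against 33.5% and 45.4%. The 5 largest rises at 24 h were those of Zfp867 (1.10), Zfp451 (0.95), Zfp697 (0.89), Zfp810 (0.83) and Zfp259 (0.76), and the 5 largest falls those of Zfp367 (-1.20), Zfp395 (-0.89), Zfp101 (-0.77), Zfp7 (-0.56) and Zfp36 (-0.53). Zfp867 went from 2.17 and 2.33 FPKM to 6.33 and 5.57. Over 193 genes with a value in both tables, the log2 differences in parental and C cells correlated with r = 0.79 at 8 h and 0.84 at 24 h, and 132 and 133 had the same sign. For 9389 genes of the same rule r was 0.87 and 0.91, and 7537 and 7775 had the same sign. These are correlations across genes, which are not replicates.

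Fewer of the zinc finger genes than of genes overall were called changed by TGF-β in C cells. The fit shares its spread with the KD 24 h libraries, which differed in these genes. The counts moved when a single library was left out, as given with the processing choices below. The part of this in the lower share was not tested. All 193 genes with a row in the shRNA table passed its filter. At 8 h, 18 were higher and 67 lower than at 0 h (adjusted p under 0.05, limma), or 44.0%, where 64.3% of 11450 tested genes were called, 19.4% higher and 44.9% lower. At 24 h, 40 were higher and 51 lower (47.2%), where 70.7% of all genes were called, 25.5% higher and 45.1% lower. The level of the genes was compared directly. In bands of 2 to 5, 5 to 10, 10 to 20 and at least 20 FPKM, 39.7%, 45.9%, 43.8% and 58.3% of the zinc finger genes were called at 8 h, against 63.2%, 62.7%, 61.7% and 67.0% of all genes. The median log2 difference was -0.14 for zinc finger genes and for all genes at 8 h, and -0.06 against -0.13 at 24 h. The split of directions depended on scaling. After quantile scaling 44 genes were higher and 36 lower at 8 h, and 69 and 30 at 24 h, and after median scaling 42 and 40, and 68 and 32. KRAB genes were higher in 2 and lower in 27 of 63 at 8 h, and 6 and 16 at 24 h, and other C2H2 genes in 15 and 37 of 120, and 31 and 31. After quantile scaling, which takes the all-gene median to -0.02 at 8 h, KRAB genes were higher in 4 and lower in 12 at 8 h and, turning the balance, higher in 18 and lower in 7 at 24 h. Other C2H2 genes were then higher in 36 and lower in 21 at 8 h and higher in 47 and lower in 20 at 24 h.

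Zfp367 showed the largest fall. In C cells it was at 11.5 and 13.3 FPKM at 0 h, 4.56 and 4.85 at 8 h, and 3.73 and 3.19 at 24 h. Both treated groups lay under every untreated library, with log2 differences of -1.23 ± 0.0896 (SE, adjusted p = 4.9e-06, limma) at 8 h and -1.59 ± 0.0896 (adjusted p = 5.43e-07) at 24 h. Parental cells gave 10.6 and 11.5, 4.97 and 5.14, and 4.44 and 4.05 FPKM. Zfp367 lies on chr13:64234330-64254510 on the minus strand, and its promoter had no lamin B1 peak at 0 h and peaks of score 104 and 95.7 at 8 and 24 h, with an ATAC peak at each time (123, 101 and 377).

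Zfp36 encodes tristetraprolin, a CCCH protein that binds AU-rich elements of mRNAs and speeds their decay. It was at 13.1 and 12.2 FPKM at 0 h, 5.997 and 4.97 at 8 h and 5.74 and 4.92 at 24 h in C cells, with log2 differences of -1.08 ± 0.0968 (adjusted p = 1.78e-05, limma) and -1.11 ± 0.0968 (adjusted p = 8.6e-06). The untreated libraries did not overlap the treated ones. The other falls named at 8 h were those of Zfp395 (-0.98), Zfp189 (-0.88), Zfp422 (-0.74) and Zfp934 (-0.73), the last with an adjusted p of 0.00864 that became 0.0534 after quantile scaling. At 24 h they were Zfp395 (-1.37), Zfp7 (-0.94), Zfp101 (-0.93) and Zfp189 (-0.87). Zfp706, the gene with the highest lamin B1 promoter peak at 24 h, fell from 89.5 and 93.8 to 77.1 and 77.5 and then 52.2 and 49.8 FPKM (-0.83 ± 0.0366, adjusted p = 1.28e-07, limma, at 24 h).

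Zfp451, a SUMO ligase that also binds Smad proteins, rose most at 8 h. It was at 11.6 and 10.96 FPKM at 0 h, 24.2 and 21.9 at 8 h, and 22.5 and 22.7 at 24 h in C cells, with log2 differences of 0.97 ± 0.0826 (adjusted p = 1.29e-05, limma) and 0.94 ± 0.0826 (adjusted p = 8.88e-06). The untreated and treated libraries did not overlap, nor did they in parental cells (5.04 and 4.91, 9.28 and 7.60, and 10.7 and 10.4 FPKM). Zfp703, a corepressor amplified in luminal breast cancer, was at 12.96 and 13.9, 22.1 and 21.0, and 19.8 and 18.5 FPKM (0.64 ± 0.0568, adjusted p = 1.59e-05, limma, at 8 h). The remaining rises were those of Zfp771 (0.66), Zfp362 (0.60), Zfp46 (0.40) and Zfp697 (0.39) at 8 h, and Zfp771 (1.10), Zfp867 (0.86), Zfp697 (0.73), Zfp513 (0.65) and Zfp579 (0.58) at 24 h. Zfp771 was at 5.11 and 4.16 FPKM in C cells at 0 h and 11.4 and 10.7 at 24 h, whereas in parental cells it was at 10.7 and 8.94 and at 8.31 and 10.1, groups that overlap.

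**Figure D4:**
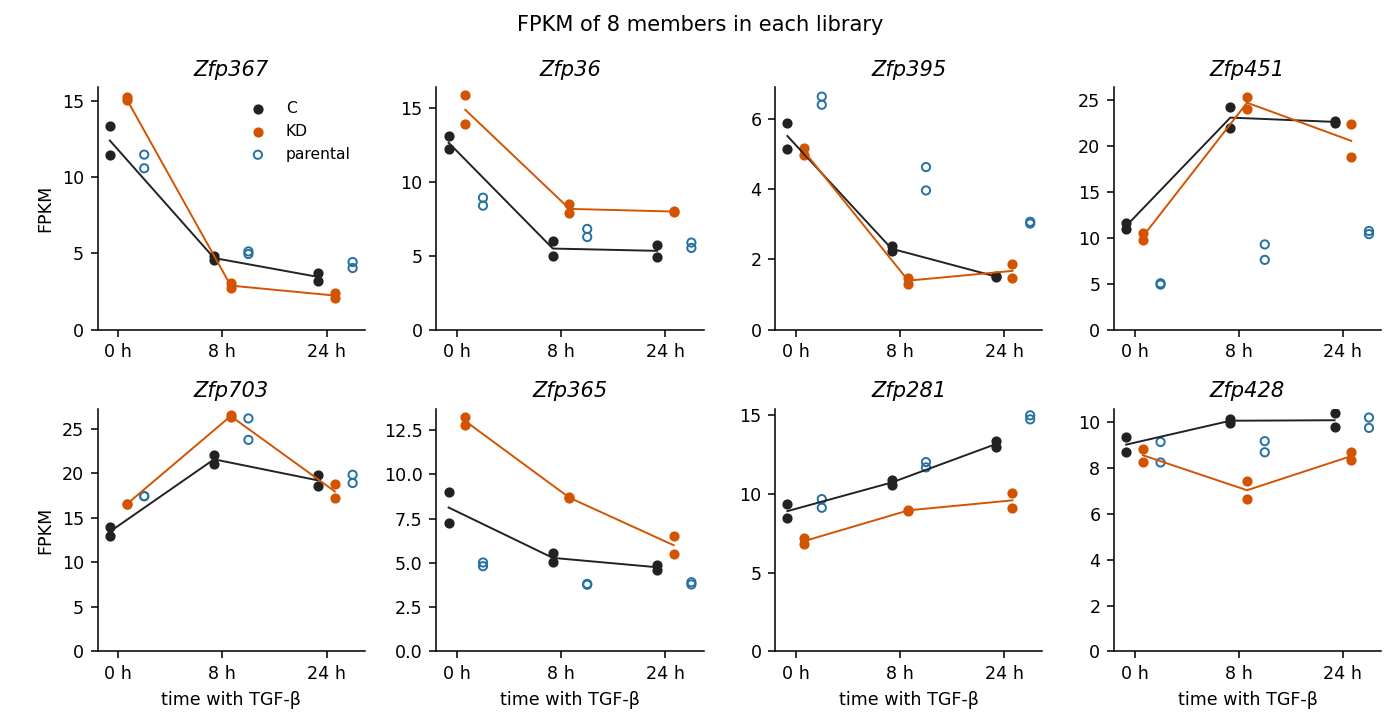
FPKM of named zinc finger genes in each of the 12 shRNA libraries, and in the 6 parental libraries (open circles) at 0, 8 and 24 h. Points are single libraries, and lines join the group means of C and KD cells. Zfp367 falls from 11.5 and 13.3 FPKM to 3.73 and 3.19 in C cells and from 15.05 and 15.2 to 2.39 and 2.09 in KD cells.

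Among further members with well described roles, Zfp281, a transcription factor known from embryonic stem cells, rose at 8 h (0.24, adjusted p = 0.0075, limma) and 24 h (0.52, adjusted p = 6.93e-05). Zfp143, which binds promoters and looping sites, fell at both times (-0.31 and -0.34), as did Zfp91 (-0.44 and -0.34), Zfp219 (-0.58 and -0.43) and Zfp809 (-0.56 and -0.24), a KRAB protein that silences retroviruses in embryonic stem cells. Zfp410, a regulator of Chd4, rose by 0.13 and 0.10. Zfp263 fell at 8 h (-0.42), and Zfp106 rose at 8 h (0.25). Zfp207 was called higher at 8 h (0.17) and lower at 24 h (-0.10, adjusted p = 0.0499, limma), the latter turning to 0.03 after quantile scaling, and Zfp326 lower at 24 h (-0.26, adjusted p = 0.0482). The calls of Zfp326 and Zfp809 at 24 h were lost after quantile scaling (adjusted p = 0.26 and 0.169, limma). Zfp148 (-0.26 and -0.19), Zfp217 (-0.13 and -0.02) and Zfp57 (-0.28 and -0.14) did not pass the test at either time.

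The largest run of the genes described, each within 250 kb of the next Zfp gene, lay on chr17:21520712-22593656. It held 15 Zfp symbols, of which 13 were among the genes described, all with the KRAB motif (Zfp54, Zfp51, Zfp53, Zfp52, Zfp948, Zfp760, Zfp820, Zfp942, Zfp943, Zfp947, Zfp944, Zfp758 and Zfp946). None of the 13 had a lamin B1 peak at any time, and 3, 3 and 11 had an ATAC peak at the promoter at 0, 8 and 24 h. GC content around their TSS was 37.2 to 56.1%, under 55% in 11 of 13. In C cells their median log2 difference was -0.36 at 8 h and -0.23 at 24 h, with 12 of 13 below 0 at each time and 2 called lower at each. Without either KD 24 h library, which enters the shared spread, 10 were called lower at 8 h and 11 at 24 h, and after quantile scaling 1 and 0 were (medians -0.18 and -0.08). In parental cells the medians were -0.05 and 0.04. The 13 genes summed to 79.6 and 77.8 FPKM in C cells at 0 h, 64.1 and 60.7 at 8 h, and 62.1 and 61.7 at 24 h. In KD cells they summed to 90.3 and 87.3, 69.8 and 69.9, and at 24 h to 70.9 and 36.9. All 13 were lower in KD 24 h replicate 2 than in replicate 1 (median -0.75), and 12 of 13 had their lowest value of all 12 libraries in it. Zfp948, for example, was at 10.4 and 4.92 FPKM and Zfp946 at 5.22 and 2.85 in the 2 KD 24 h libraries. The median difference of KD from C cells at 24 h was -0.30 with both libraries, 0.14 without replicate 2 and -0.64 without replicate 1. In the same order 0 were called higher and 1 lower, 4 and 1, and 0 and 12.

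**Figure D5:**
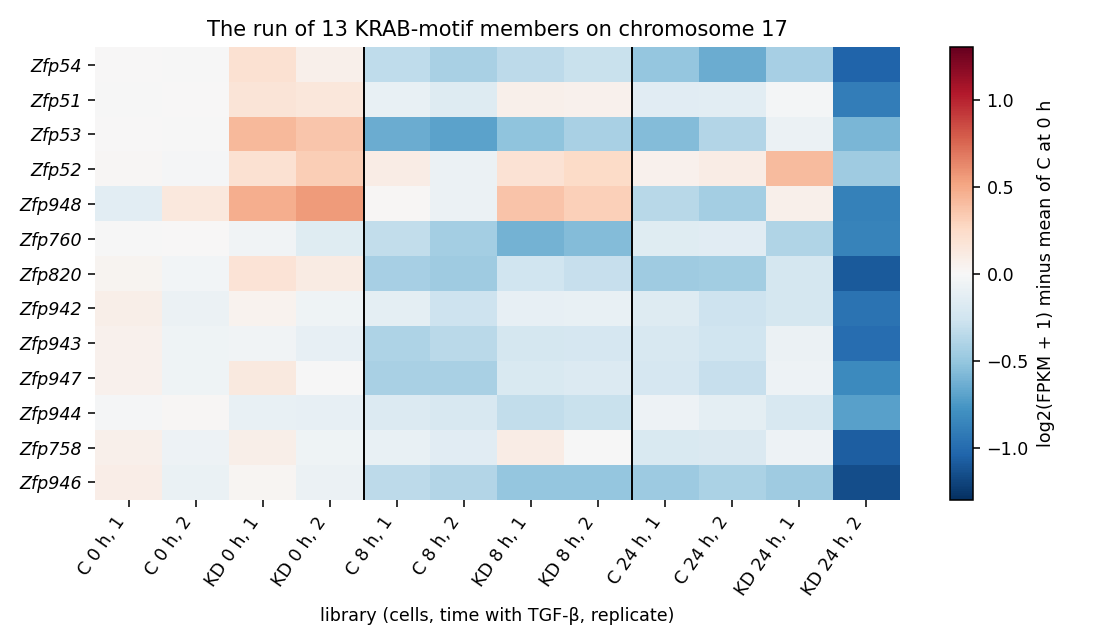
Colour gives log2(FPKM + 1) minus the mean of C cells at 0 h for the 13 KRAB genes of the chromosome 17 run (rows, in gene order) in the 12 shRNA libraries (columns). KD 24 h replicate 2, in the last column, holds the lowest value of 12 of the 13 genes.

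A run of 8 genes on chr7:30553571-30954746 (Zfp84, Zfp790, Zfp27, Zfp74, Zfp568, Zfp566, Zfp260 and Zfp146), 5 of them with the KRAB motif, differed from it in C cells at 24 h. At 8 h its median log2 difference was -0.02, with 5 of 8 below 0, 1 called higher and 1 lower. At 24 h the median was 0.21, with 5 called higher and 0 lower, and 8 and 0 after quantile scaling. In parental cells the median was 0.17 at 8 h and 0.39 at 24 h. Lamin B1 peaks were found at 3 of the 8 genes. Whether the runs differ beyond the spread between libraries was not tested.

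Few zinc finger genes were called changed by lamin B1 knock-down in untreated cells, in a fit whose spread the KD 24 h libraries share. The count moved when such a library was left out, as given below. At 0 h, 5 of 193 were higher and 9 lower in KD than in C cells (7.25%), where 19.7% of all genes were called, 10.6% higher and 9.09% lower. Zfp365 was the highest, at 7.26 and 9.001 FPKM in C and 13.2 and 12.8 in KD cells (0.62 ± 0.0981, adjusted p = 0.00392, limma). The groups did not overlap. Zfp697 (0.36), Zfp719 (0.29), Zfp703 (0.28) and Zfp623 (0.25) were higher too, and Zfp317 (-0.38), Zfp334 (-0.36), Zfp369 (-0.35), Zfp384 (-0.31), Zfp281 (-0.31) and Zfp652 (-0.22) lower. The count of 14 was 3 without KD 0 h replicate 1, 4 without KD 0 h replicate 2, 9 without either library of KD 8 h or of C 24 h cells, and 34 without either library of KD 24 h cells.

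At 8 h, 10 genes were higher and 20 lower in KD cells, where 35.8% of all genes were called, 19.3% higher and 16.5% lower. Zfp365 (0.62) and Zfp36 (0.50) were the highest, followed by Zfp810 (0.44), Zfp697 (0.36), Zfp623 (0.33) and Zfp672 (0.33). The lowest were Zfp367 (-0.55), Zfp395 (-0.46), Zfp428 (-0.46), Zfp334 (-0.43), Zfp687 (-0.37) and Zfp462 (-0.33). The count of 30 was 16 without C 8 h replicate 1, 19 without C 8 h replicate 2 and 14 without KD 8 h replicate 2, and 55 and 56 without KD 24 h replicate 1 or 2.

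At 24 h, 3 genes were higher and 20 lower in KD cells, where 28.3% of all genes were called, 16.8% higher and 11.5% lower. Zfp36 (0.51), Zfp1 (0.38) and Zfp90 (0.29) were higher. Zfp281 was at 13.01 and 13.3 FPKM in C and 10.1 and 9.12 in KD cells (-0.42 ± 0.062, adjusted p = 0.00205, limma). It was lower in KD cells at 0 and 8 h too, with no overlap of the libraries at any time. The other named genes were Zfp760 (-0.47), which lies in the chromosome 17 run, Zfp81 (-0.47), Zfp367 (-0.46), Zfp317 (-0.42) and Zfp692 (-0.32). Without KD 24 h replicate 2, Zfp760 was at -0.23 (adjusted p = 0.0492, limma) and Zfp81 at -0.27 (adjusted p = 0.026), and Zfp90 lost its call (0.22, adjusted p = 0.0587). Zfp760, Zfp81, Zfp90 and Zfp692 also lost theirs without either C 24 h library, Zfp367 without C 24 h replicate 1 and Zfp36 without C 24 h replicate 2. Without KD 24 h replicate 2 the split was 9 higher and 13 lower, and without replicate 1 it was 7 and 78. Without C 24 h replicate 1 or 2 the counts were 5 in both cases. The median of the KRAB genes was -0.10 with all libraries, 0.05 without KD 24 h replicate 2 and -0.22 without replicate 1.

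The calls are given by lamin B1 peak as counts, with no test. Of the genes that were lamin B1 + in parental cells, 6 of 45, 19 of 83 and 10 of 69 were called in KD against C cells at 0, 8 and 24 h, and of those without a peak 8 of 143, 11 of 105 and 13 of 119. The 24 h counts were 7 of 69 and 15 of 119 without KD 24 h replicate 2, and 25 of 69 and 57 of 119 without replicate 1. The shares of all genes were 21.4% and 18.9%, 37.7% and 37.7%, and 28.0% and 31.1%. The zinc finger genes with a peak had higher median FPKM (7.77 against 6.44, 6.96 against 5.48 and 7.53 against 5.73), and the part of this in the counts was not tested.

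In KD cells TGF-β gave 21 higher and 82 lower genes at 8 h, where 67.8% of all genes were called, 23.0% higher and 44.8% lower, and 33 and 79 at 24 h, where 71.9% were called, 28.6% higher and 43.3% lower. Without KD 24 h replicate 2 the latter were 38 and 69, and without replicate 1 they were 35 and 93. KD and C cells each have their own untreated libraries, and the difference between their responses was tested directly. It was past the threshold for 2 of 193 genes at each time (0 higher and 2 lower), where 4.06% of all genes were called at 8 h, 1.61% lower, and 4.72% at 24 h, 1.98% lower. At an unadjusted p under 0.05 the counts were 12 and 15 of 193, against 2430 and 2713 of all 11450 genes. Zfp367 was among them at both times. It was at 15.05 and 15.2 FPKM in KD cells at 0 h, 3.06 and 2.73 at 8 h, and 2.39 and 2.09 at 24 h, so that KD cells lay above C cells at 0 h and under them later. Its log2 response was -1.23 in C and -2.05 in KD cells at 8 h, a difference of -0.82 ± 0.127 (adjusted p = 0.0183, limma), and -1.59 against -2.32 at 24 h, a difference of -0.73 ± 0.127 (adjusted p = 0.0206). Leaving out any KD 0 h, C 8 h or KD 8 h library lost the first call. The count of 2 at 8 h was 0 without any of these libraries, 1 without C 0 h replicate 1 or either C 24 h library, 4 without C 0 h replicate 2 and 8 without either KD 24 h library. The count of 2 at 24 h was 0 without either KD 0 h library or C 24 h replicate 1, 1 without C 0 h replicate 1, C 24 h replicate 2 or any 8 h library, 5 without C 0 h replicate 2, 60 without KD 24 h replicate 1 and 4 without KD 24 h replicate 2.

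The response of Zfp428 at 8 h differed by -0.40 ± 0.09 (adjusted p = 0.0491, limma), a call that was lost with a constant of 0.1, with no filter, with either scaling, with the replicate block (adjusted p = 0.071) and without 9 of the 12 libraries in turn. It was at 8.72 and 9.35 FPKM in C and 8.85 and 8.28 in KD cells at 0 h, and 9.99 and 10.2 against 6.65 and 7.43 at 8 h. The groups overlapped at 0 h and not at 8 h. Zfp703 differed at 24 h by -0.37 ± 0.0803 (adjusted p = 0.0399, limma), a call that was lost with no filter, with the replicate block (adjusted p = 0.0608) and without 9 of the 12 libraries in turn. KD cells were above C cells at 0 h (16.5 and 16.5 against 12.96 and 13.9 FPKM) and overlapped them at 24 h (17.2 and 18.7 against 19.8 and 18.5).

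The genes through which KRAB proteins act were followed as a list of 17, which includes Zfp57. Of the 17, 1 was higher and 10 lower at 8 h in C cells, and 1 and 11 at 24 h. These are 64.7% and 70.6% of the list, near the 64.3% and 70.7% of all genes. In KD against C cells 1 was higher and 5 lower at 0 h, 0 and 10 at 8 h, and 0 and 6 at 24 h. These are 35.3%, 58.8% and 35.3% of the list against 19.7%, 35.8% and 28.3% of all genes. Among all genes of at least 20 FPKM, where Trim28, Cbx3, Chd4, Hdac1 and Hdac2 lay, the shares were 21.8%, 43.2% and 33.5%. The share of the list at 24 h was thus near that of genes of this level. After quantile scaling the counts in C cells were 1 and 3 at 8 h and 2 and 7 at 24 h, and in KD against C cells 1 and 3, 0 and 10, and 0 and 8. Trim28, the protein that KRAB domains bind, was at 165 and 174 FPKM in C and 150 and 149 in KD cells at 0 h, and at 155 and 150 against 113 and 115 at 8 h (-0.42 ± 0.0549, adjusted p = 0.000779, limma). The groups did not overlap. Setdb1 was lower in KD cells at 8 h (-0.36), as were Cbx3 (HP1γ, -0.33), Morc2a (-0.64) and Uhrf1 (-0.95), a partner of the DNA methyltransferase Dnmt1 in S phase. Uhrf1 and Cbx3 fell in C cells by 24 h (-1.86 and -1.01). Chd3, a remodeller of the NuRD complex, was the one that rose in C cells (0.50 at 8 h). It was at 52.3 and 49.4 FPKM in C and 27.1 and 27.0 in KD cells at 0 h (-0.88, adjusted p = 6e-05, limma). At 24 h the groups overlapped, at 67.7 and 73.4 in C and 60.8 and 68.1 in KD cells. The difference of responses was called for 2 of the 17 at 8 h (11.8%, all genes 4.06%), Uhrf1 (-0.83, adjusted p = 0.0315, limma) and Dnmt1 (-0.76, adjusted p = 0.0461). At 24 h it was called for 1 (5.88%, all genes 4.72%), Chd3 (0.75, adjusted p = 0.00432, limma).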

How the data were processed

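Per the labels, libraries were sequenced on the HiSeq 2500 and the processing notes name Bowtie, TopHat and Cufflinks and the build mm9. FPKM values were computed by the authors and deposited with 1 column per library and no header, so columns were taken in the order named in the deposited descriptions. Parental columns carry no replicate number. The deposited peak lists hold a MACS score per peak, at least 50.0, and no reads, so peak depth is unknown.

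Members and lists were chosen with earlier results of these data known. Members were placed on mm9 with GENCODE gene models by symbol (5 not placed). KRAB and C2H2 motifs were searched in translated GENCODE coding sequences. A peak counted by 1 bp of overlap, and the interval of a share is a 95% Wilson interval.

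The test used log2(FPKM + 1). The 11450 genes whose FPKM reached 1 in 2 or more of the 12 libraries were fitted in limma 3.58.1 (R 4.3.3; lmFit, contrasts.fit, eBayes with a trend) with 6 groups and 9 contrasts, with Benjamini-Hochberg adjustment over all genes tested. A gene was called at an adjusted p under 0.05. The labels and methods give 2 replicates per group as biological, and p-values measure the spread between these. Named genes were the 6 largest rises and falls among called members whose replicates did not overlap (4 of each sign for differences of responses), the 8 highest members, those nearest the FPKM limit, the 5 largest parental changes, the 4 highest lamin B1 promoter peaks per time and 15 members of known role. Genes of the printed sequences, Zfp706 and Zfp428 values, the 2 runs and members of the machinery list named in the text were chosen after their values were seen. Alternatives were another constant, no filter, quantile and median scaling, a replicate block, each library left out, other FPKM limits, and other peak rules. Hi-C was not analysed here.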

Additional observations from a re-analysis of the deposited data

Results flagged for a closer look

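4 results stood out because the response to TGF-β differed between KD and C cells by a test of the difference itself (limma). Zfp367 fell further in KD cells at 8 h, by -0.82 on the log2 scale, and at 24 h, by -0.73, with KD cells above C cells at 0 h. Both of its calls were lost when some single libraries were left out, as given above. Zfp428 differed by -0.40 at 8 h, with the groups overlapping at 0 h, and lost its call under 5 other processing choices (a constant of 0.1, no filter, either scaling, the replicate block). Zfp703 differed by -0.37 at 24 h, with KD cells above C cells at 0 h, and lost its call with no filter and with the replicate block. The causes were not tested.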

How the results depend on the processing

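Each count is of called zinc finger genes. With membership from 5 FPKM the counts were 48 and 54 in C cells at 8 and 24 h, 18 and 14 for KD against C at 8 and 24 h, 58 and 65 in KD cells, and 1 and 1 for the differences of responses. At 8 h the difference of responses was called in 1 gene with a constant of 0.1, with no filter, with quantile scaling, with median scaling and with the replicate block, and at 24 h in 1 with no filter and with the replicate block. Replicate numbers were not taken to pair libraries, since the correlations of their deviations ran from -0.135 to 0.368 over 15 pairs of groups and passed 0.1 in 2. The 2 were C with KD cells at 24 h (0.368), groups that are compared here, and KD cells at 0 h with KD cells at 24 h (0.184). With the replicate block 18 genes were higher and 66 lower in C cells at 8 h. Leaving out 1 library gave 3 to 34, 14 to 56 and 5 to 85 called genes for KD against C at 0, 8 and 24 h, 63 to 115 and 62 to 118 in C cells, 75 to 129 and 83 to 128 in KD cells, and 0 to 8 and 0 to 60 for the differences of responses. Peaks within 500 bp of the TSS gave lamin B1 shares of 16.3%, 35.8% and 27.4%. Peaks at or above the median score gave 17.4%, 30.0% and 26.3% for lamin B1 and 24.2%, 26.8% and 68.9% for ATAC, and lists cut to equal length gave 26.3% for lamin B1 at 8 h and 47.9% for ATAC at 24 h. The parental median at 8 h was 0.094 with quantile scaling, 0.025 with membership from 1 FPKM and 0.023 to 0.039 with a library left out, and at 24 h 0.17 with a constant of 0.1, 0.093 with membership from 5 FPKM and 0.14 to 0.15 with a library left out. The genes named for the size of their change were chosen from the calls of the main fit, so a kept call is no independent support. Of their calls, 7 were lost with no filter, 2 with quantile scaling and 2 with the replicate block. A constant of 0.1 and median scaling each lost 1. Leaving out single libraries lost further calls, and 0 reversed under any alternative. The causes were not tested. The depth behind peaks is unknown, and 2 libraries per group limit the precision.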

Other observations

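Promoter sequences of the 190 placed genes were searched for named motifs from 250 bp upstream to 50 bp downstream of the TSS, on both strands. ACTTCCGG, an ETS motif, was found in 11.1% of the promoters, against 9.24% of those of the same FPKM rule and 4.89% of all placed genes. The NRF1-like CGCATGCG was found in 4.21% (4.01% and 2.28%), the YY1 motif AAGATGGCG in 4.74% (3.59% and 1.81%), the CRE motif TGACGTCA in 3.16% (3.64% and 2.38%), the SMAD palindrome GTCTAGAC in 1 of 190 (0.526%, against 0.212% and 0.170%), and the E-box CAGCTG in 15.8% (13.7% and 15.5%). CCCANNATG, a core of the element that Zfp143 binds, was found in 4.74% (5.39% and 4.75%). Overlaps between motifs were not removed. A match describes letters and not binding.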
